A study of Mus musculus with 6 samples.

Results

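The 39 protein-coding Hox genes of the mouse were followed in RNA sequencing of dental pulp, as all protein-coding genes of the table whose symbol is Hoxa, Hoxb, Hoxc or Hoxd with a number, which are 39 of 53342 genes. Pulp had been taken from teeth of C57BL/6 mice aged 3 months, in 3 WT samples (replicates 2, 4 and 5) and 3 Mmp13-/- samples (replicates 1, 2 and 6, labelled MMP13KO). In the mutant the collagenase gene Mmp13 is inactivated in the whole animal and not in the pulp alone, and no other allele or agent is named for either genotype. The question was which Hox genes are present in this tissue of the head and which of them differ between the genotypes. The sample labels give molars as the source and the study's methods give incisors. In the sample titles the word molar stands for WT alone, and no tooth is named for Mmp13-/-. The titles therefore do not settle whether the tooth was the same in both genotypes. Samples are described in the methods as independent, but whether each is a single animal or a pool is not stated in the sources used here.

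Hox genes encode homeodomain transcription factors that give cells their position along the body axis. They lie in 4 clusters, and genes are numbered by paralogue group, from group 1, switched on early and far to the front, to group 13, switched on late and at the tail and limb ends. Their proteins bind DNA together with TALE partners of the Pbx and Meis families, and their clusters are kept silent by Polycomb complexes and open by Trithorax complexes. Neural crest cells that build the upper face, jaws and dental pulp come from a part of the embryo in front of the Hox domains, where Dlx, Msx, Pitx and Alx homeobox genes take over the patterning. Hox genes are also used by blood progenitors and by many tissues of the trunk and limbs. On mouse build GRCm38 the clusters lie at chr6:52155590-52260880 (A, 11 genes), chr11:96194316-96368256 (B, 10 genes), chr15:102921103-103036852 (C, 9 genes) and chr2:74668310-74765142 (D, 9 genes).

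Values are estimated counts per gene, given in the order of replicates 2, 4 and 5 for WT and 1, 2 and 6 for Mmp13-/-. WT libraries held 28442936 to 29980236 counts and Mmp13-/- libraries 21561420 to 26547121. Mmp13, the targeted gene, stood at 1069, 1139 and 827 in WT and 10.2, 32.9 and 40.4 in Mmp13-/-, a log2 fold change of -4.96 (SE 0.46, adjusted p = 7.67e-05). Dspp, which encodes the main non-collagenous matrix proteins of dentin, was present in all 6 samples, at 47667, 15231 and 19856 in WT and 73752, 72469.7 and 27123 in Mmp13-/-, with a log2 fold change of 1.13 (SE 0.40, adjusted p = 0.037). Replicate 6 of Mmp13-/- stood apart, since the predicted gene Gm10800 took 30.5% of its counts, against 3.89% and 6.88% in the other Mmp13-/- samples and 0.021% to 0.0277% in WT. Odorant and vomeronasal receptor genes, which pulp is not known to use, summed to 17.9 to 20.8 CPM in WT and to 308, 357 and 1198 in Mmp13-/-. Their counts per kb of exon are used below as a background rate of each library, and a count of 3, taken as the floor of detection, stands at 0.1 to 0.105 CPM in WT and 0.113 to 0.139 in Mmp13-/-.

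WT pulp held counts from few Hox genes. Of the 39 genes, 21 were at 0 in all 3 WT samples, and 5 exceeded 3 counts in every WT sample, namely Hoxd8, Hoxd4, Hoxd9, Hoxd3 and Hoxb4. With a floor of 10 counts in every sample only Hoxd8 and Hoxd4 remained of these 5. Posterior genes, those of paralogue groups 9 to 13, were at 0 in all WT samples for 13 of 16 members, central genes of groups 4 to 8 for 5 of 15 and anterior genes of groups 1 to 3 for 3 of 8. By cluster the genes at 0 were 4 of 11 in A, 6 of 10 in B, 6 of 9 in C and 5 of 9 in D. A count of 0 in a library allows up to 3 counts there, so absence is not shown.

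**Figure D1:**
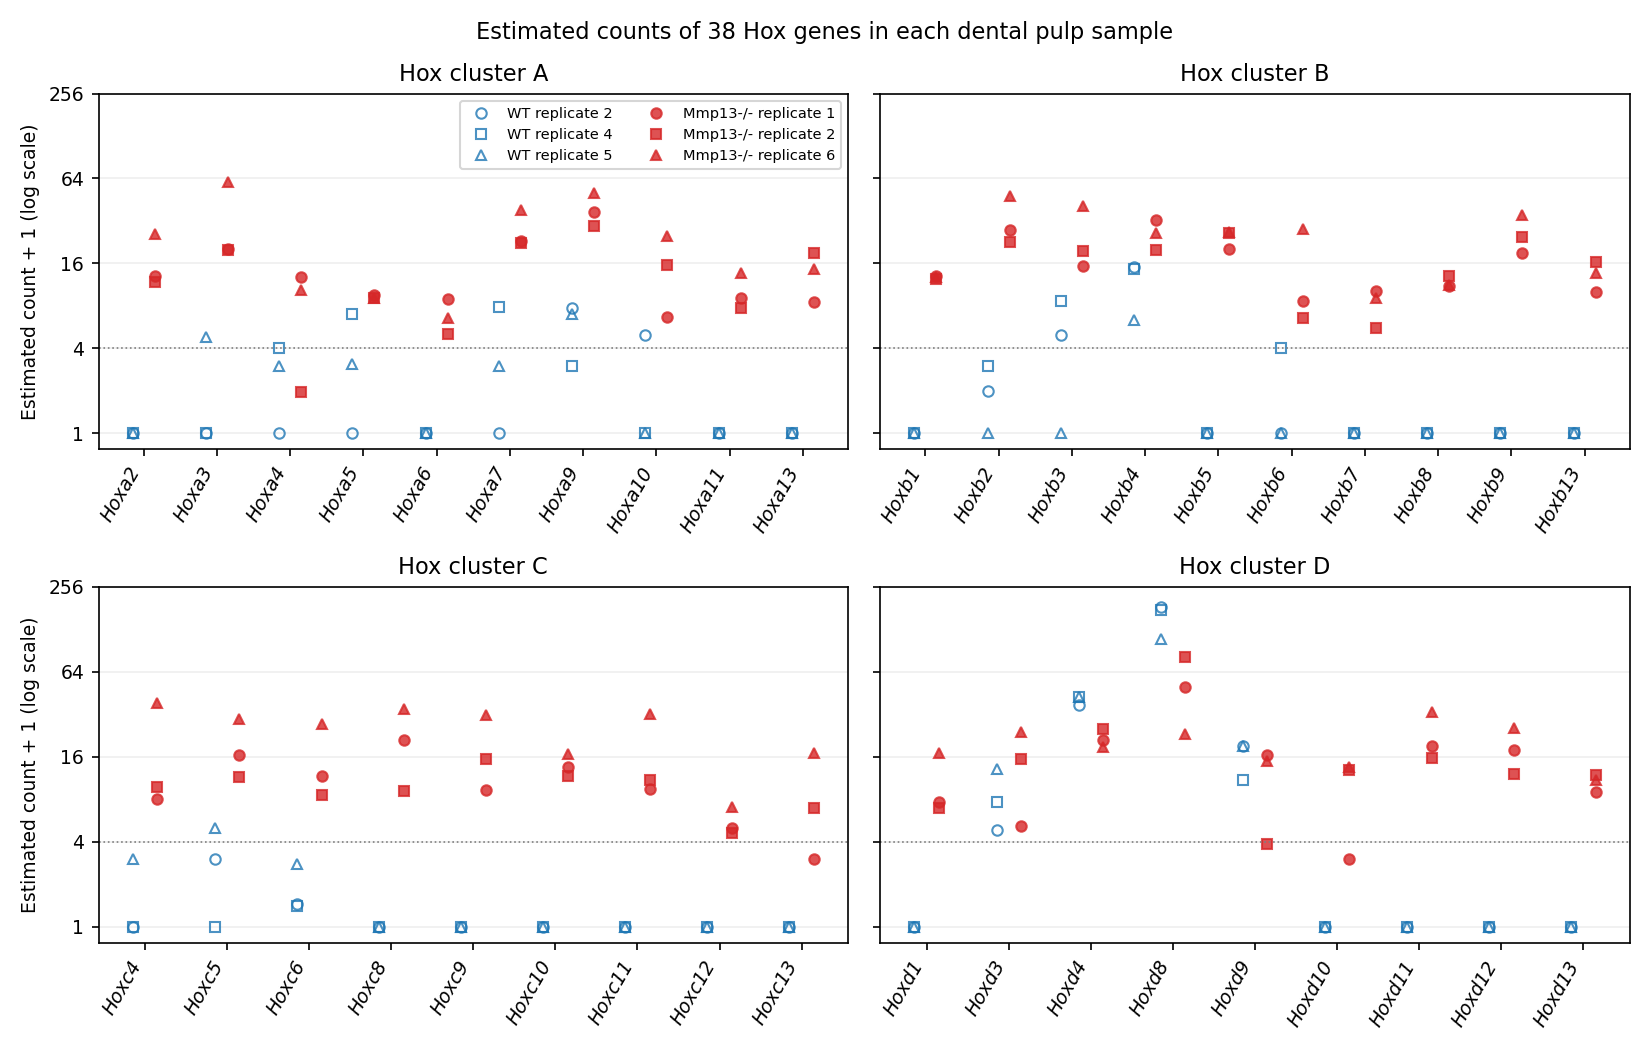
Estimated count plus 1 (vertical axis, log scale) of 38 Hox genes in each sample, in a panel for each cluster, with WT as open blue and Mmp13-/- as filled red symbols and the dotted line at 3 counts. In WT 21 genes sit at 0 in every sample and Hoxd8 stands far above the rest, whereas the Mmp13-/- samples show counts for every gene plotted.

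Hoxd8 (ENSMUSG00000027102, chr2:74704615-74707933), a trunk-level gene of the centre of the D cluster, was the leading Hox gene of WT pulp. Its counts were 184, 174 and 109 in the WT samples, which is 67.2% of all Hox counts in replicate 2 (exact 95% binomial interval 61.2% to 72.7%), 62.8% in replicate 4 (56.8% to 68.5%) and 51.7% in replicate 5 (44.7% to 58.6%). These intervals cover counting error alone. Together the neighbours Hoxd9, Hoxd8, Hoxd4 and Hoxd3 held 88.3% (83.9% to 91.9%), 83.8% (78.9% to 87.9%) and 85.8% (80.3% to 90.2%) of the Hox counts of the 3 WT samples. They span chr2:74697727-74748442, a stretch of 50.7 kb. On either side of it the cluster was without counts. Hoxd13, Hoxd12, Hoxd11 and Hoxd10, known from digits, forearm and hind limb, were at 0 in every WT sample on the Hoxd9 side, and so was Hoxd1 on the Hoxd3 side. Evx2, the homeobox gene next to Hoxd13, stood at 0, 1.9 and 0, and Haglr, the noncoding RNA between Hoxd3 and Hoxd1, at 0.

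Per kb of exon, the scale on which genes can be compared, the WT level of Hoxd8 was 54.4 ± 12.8 normalised counts, which are counts brought to a common effective library size (SD, n = 3). Hoxd4 (ENSMUSG00000101174), a gene of the upper neck vertebrae, followed at 13 ± 1.25 and Hoxd9, a limb and trunk gene, at 6.94 ± 2.2. Hoxb4 (ENSMUSG00000038692, chr11:96318267-96321638), known for its action in blood stem cells, reached 4.08 ± 1.72 and Hoxd3, another gene of the upper neck, 1.76 ± 1.04. The spans of Hoxd8 and Hoxd4 did not touch those of the other genes, whereas Hoxd9 and Hoxb4 did not differ beyond their spread, and neither did Hoxb4 and Hoxd3. Hoxd3 and Hoxd4 share 388 bases of exon, and the readthrough gene model Gm28230, at 15.2, 24 and 32.4 counts in WT, covers 53.1% of the exons of Hoxd3 and 39.1% of those of Hoxd4, so that counts of these 3 models are uncertain. The antisense RNA Hoxd3os1, which overlaps Hoxd3 and Hoxd4 on the other strand, stood at 18.4, 27.4 and 22.4, and whether counting used strand is not stated in the sources used here.

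**Figure D2:**
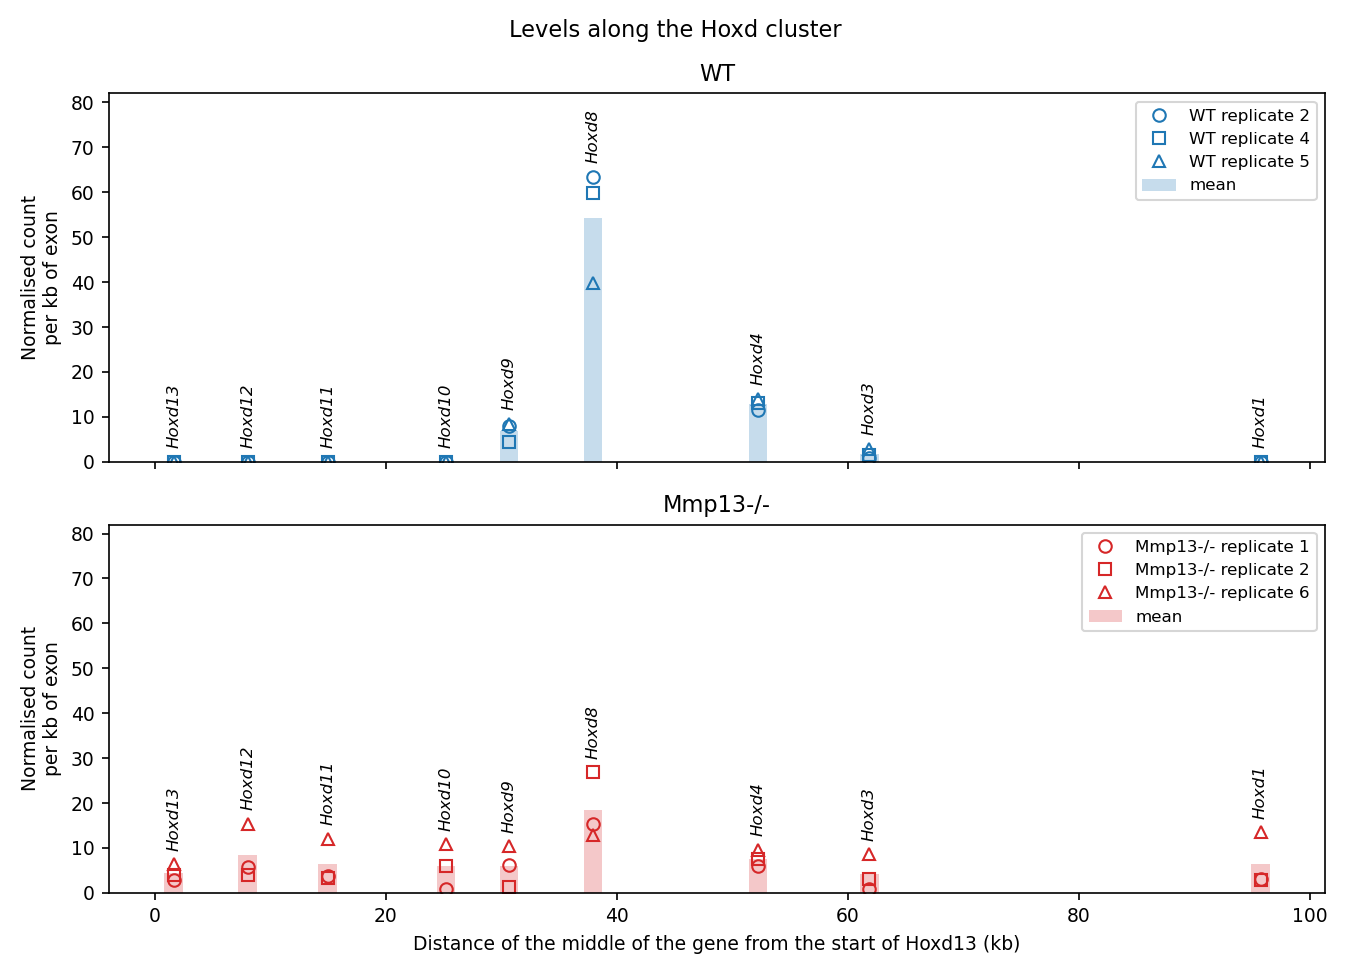
Normalised count per kb of exon (vertical axis) of the 9 Hoxd genes against the distance of the middle of each gene from the start of Hoxd13 in kb (horizontal axis), with WT above and Mmp13-/- below, symbols for samples and bars for means of 3. WT counts sit in Hoxd9, Hoxd8, Hoxd4 and Hoxd3, with Hoxd8 at a mean of 54.4, while in Mmp13-/- every gene of the cluster has counts.

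The 250 bases before the RefSeq start of Hoxd8 and Hoxd4, the leading genes of WT pulp, are shown with those of Hoxd10, a neighbour at 0 in all WT samples, all on the plus strand of GRCm38. CG pairs, the sites of DNA methylation, are in capitals. The windows lie at chr2:74704365-74704614 (Hoxd8), chr2:74721728-74721977 (Hoxd4) and chr2:74691641-74691890 (Hoxd10).
Hoxd8: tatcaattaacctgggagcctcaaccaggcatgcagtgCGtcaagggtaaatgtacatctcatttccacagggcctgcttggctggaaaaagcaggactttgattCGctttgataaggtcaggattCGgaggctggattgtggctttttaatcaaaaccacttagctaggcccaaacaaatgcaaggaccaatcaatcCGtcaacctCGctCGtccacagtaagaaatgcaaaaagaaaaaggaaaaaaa
Hoxd4: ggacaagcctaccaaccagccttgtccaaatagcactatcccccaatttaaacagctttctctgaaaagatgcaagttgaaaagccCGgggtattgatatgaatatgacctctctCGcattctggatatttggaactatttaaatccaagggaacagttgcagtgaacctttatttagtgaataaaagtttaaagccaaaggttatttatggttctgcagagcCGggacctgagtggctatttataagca
Hoxd10: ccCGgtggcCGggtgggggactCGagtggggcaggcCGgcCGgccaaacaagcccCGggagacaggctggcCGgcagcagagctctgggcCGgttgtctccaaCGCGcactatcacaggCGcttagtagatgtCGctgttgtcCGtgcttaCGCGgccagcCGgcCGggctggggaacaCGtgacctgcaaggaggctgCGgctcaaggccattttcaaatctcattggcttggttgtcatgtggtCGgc
Hoxd8 had 6 CG pairs in its window and Hoxd4 had 3, at 44.4% and 40.4% G and C, while Hoxd10 had 20 pairs at 65.6%. Over all 32851 RefSeq promoter windows of that length the median was 6 pairs, and 17.9% had 20 or more. The 24 Hox windows found, for 22 of the 39 genes, had a median of 12.5 pairs and ran from 2 to 35. Hoxd9 and Hoxb4, present in WT pulp, had 13 and 14, and Hoxd13 and Hoxd1, at 0, had 31 and 24. Other genes at 0 had fewer pairs, with 10 for Hoxd12, 6 for Hoxa2 and 7 for Hoxb1. Hoxd11, also at 0, had 2 and 20 in separate windows. The number of pairs therefore did not separate genes present in WT from genes at 0. The letters TATAAA, on either strand, were in the window of Hoxd4, in 4 Hox windows in all and in 12.4% of all windows. CCAAT, on either strand, was in the windows of Hoxd8, Hoxd4 and Hoxd10, in 14 Hox windows and in 33.8% of all.

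The WT counts of the 5 genes present were set beside the receptor background. They were chosen for over 3 counts in every WT sample, which already exceeds that background for their exon lengths, so this comparison does not test their presence. Expressed as a multiple of the count that the receptor rate of the library gives for exons of the same length, Hoxd8 was at 578, 645 and 420.0 times in the 3 WT samples. Hoxd4 was at 106, 142 and 149 times and Hoxd9 at 72.6, 47.5 and 88.9 times. Hoxb4, at 47, 53.7 and 22.2 times, and Hoxd3, at 7.97, 16 and 30.7 times, were the lowest of the 5. Genes not counted as present came near Hoxd3 in single WT samples, such as Hoxa7 at 0, 24.4 and 7.34 times and Hoxb3 at 8.11, 18.3 and 0 times. The receptor rate in WT was 0.0947 to 0.116 counts per kb of exon. Beside the homeobox genes of head and teeth the levels of the 5 genes are low. The 22 genes of that list had a median of 162.6 normalised counts per kb in WT, against 54.4 for Hoxd8, with 21 of 22 above 3 counts in every sample.

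Hoxd8 was lower in Mmp13-/- pulp. It had 184, 174 and 109 in WT and 48.7, 80.7 and 22.3 in Mmp13-/-, and every Mmp13-/- sample lay below every WT sample. Normalised counts were 149 ± 35 in WT and 50.4 ± 20.5 in Mmp13-/- (SD, n = 3), a log2 fold change of -1.54 (SE 0.32, adjusted p = 0.00283) in the quasi-likelihood test of edgeR, adjusted by Benjamini-Hochberg over 24534 genes, which is 2.9-fold lower. Its share of all Hox counts was 9.26% (6.93% to 12.1%), 14.6% (11.7% to 17.8%) and 2.42% (1.52% to 3.65%) in the 3 Mmp13-/- samples, where other Hox genes had more counts. In replicate 6 it stood at 8.12 counts per kb of exon, below Hoxd12 at 9.78 and Hoxd1 at 8.59. The call was lost in the test against a 2-fold change (adjusted p = 0.102) and with a correction for GC content, an offset fitted to the GC content of genes in each library, where the log2 fold change was -0.75 (adjusted p = 0.102). In bulk tissue fewer cells of a type and less RNA per cell cannot be told apart.

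Of the other 4 genes present in WT, 0 passed the edgeR test, and 1, Hoxb4, had an unadjusted p under 0.05. Hoxd4 stood at 36.2, 41.2 and 41.5 in WT and 19.9, 24.2 and 17.9 in Mmp13-/-, also without overlap between the genotypes, with a log2 fold change of -0.77 (SE 0.37, adjusted p = 0.108). Its value was -1.39 with the receptor background subtracted (adjusted p = 0.0174), -0.95 without replicate 6 of Mmp13-/- (adjusted p = 0.0392) and 0.023 with the GC correction (adjusted p = 0.969). Hoxd9 stood at 18, 10 and 18 in WT and 15.4, 2.86 and 14 in Mmp13-/-, with overlapping genotypes and a log2 fold change of -0.28 (SE 0.70, adjusted p = 0.762). Hoxd3 had 3.88, 6.63 and 12.2 in WT and 4.21, 14.5 and 23 in Mmp13-/-, overlapping as well, at 1.19 (SE 0.83, adjusted p = 0.255). Hoxb4 had 14, 13.6 and 5.39 in WT and 31.6, 18.8 and 25.4 in Mmp13-/-, with every Mmp13-/- sample above every WT sample, at a log2 fold change of 1.40 (SE 0.56, adjusted p = 0.0578). It passed with upper-quartile factors, with total counts, with limma on the deposited log2 values and with the GC correction, at adjusted p of 0.0251 to 0.0472. Hoxb4 did not pass with the receptor background subtracted, at 1.07 (adjusted p = 0.121), with DESeq2 (adjusted p = 0.111) or with no filter (adjusted p = 0.0956). Nor did it pass with any sample left out, where adjusted p ran from 0.0612 to 0.215.

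**Figure D3:**
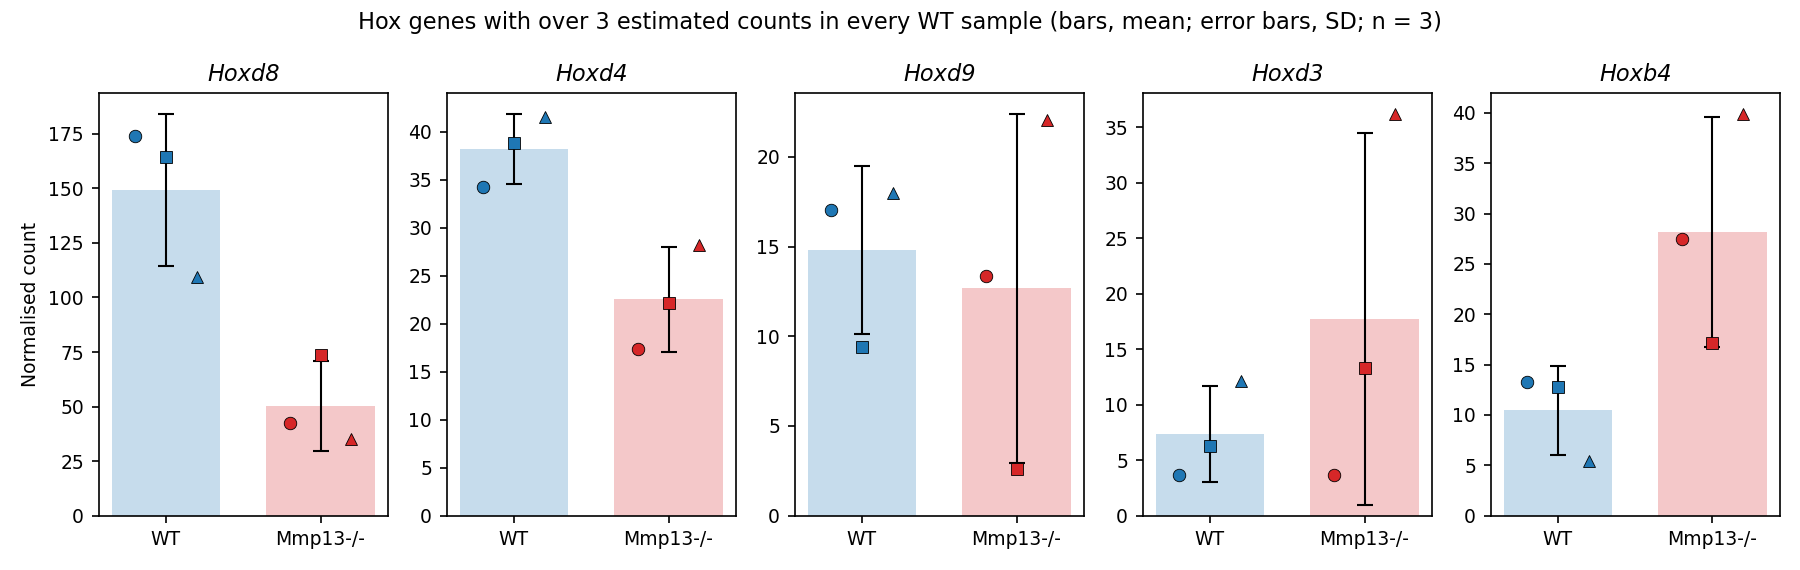
Normalised counts (vertical axis, from 0 and on its own scale for each gene) of the 5 Hox genes with over 3 counts in every WT sample, with points for samples, bars for means and error bars for SD (n = 3). Hoxd8 and Hoxd4 are lower in each Mmp13-/- sample than in each WT sample, Hoxb4 is higher, and Hoxd9 and Hoxd3 overlap.

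Most other Hox genes had no or few counts in WT and more in Mmp13-/-. The 14 of these that were tested had no WT sample at the level of the low-count filter, 0.364 CPM. They passed that filter through their Mmp13-/- counts alone and had to differ, so the p-values given for them below do not test a rise. Over the 39 genes, counts did not overlap between genotypes for 34 with Mmp13-/- above WT and for 2 with it below. Among 51191 genes with any count, 35.5% did not overlap with Mmp13-/- above and 14.5% with it below. Hoxd9, Hoxd3 and Hoxa4 overlapped. The numbers were also 34 and 2 without replicate 6 of Mmp13-/-. Among the 34 are the 21 genes at 0 in every WT sample, which cannot overlap once each Mmp13-/- sample has any count. Of 520 other protein-coding genes at 0 in WT, compared below, 79.2% had counts in each Mmp13-/- sample. The number 34 therefore does not test a rise of Hox genes. Summed over the 38 genes other than Hoxd8, WT samples had 85.4, 96.5 and 101.7 normalised counts and Mmp13-/- samples 416, 431 and 1395, where replicate 6 held the most.

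In cluster A the anterior genes belong to hindbrain and pharyngeal arches. Hoxa2, which sets the identity of the second pharyngeal arch and is absent from the jaw arch in front of it, stood at 0 in every WT sample and 12, 10.8 and 24.7 in Mmp13-/-, at least 6.84-fold (3.51-fold without replicate 6) higher than the WT floor. Such second values leave out replicate 6 of Mmp13-/- and are given where they are lower by over 1.5 times. Hoxa3, needed for thymus and parathyroid, stood at 0, 0 and 3.84 in WT and 19.2, 18.9 and 59 in Mmp13-/-. Its log2 fold change was 4.87 (SE 1.15, adjusted p = 0.00581). With a sample left out its value was 3.61 without replicate 6 of Mmp13-/-, 4.23 and 4.27 without WT replicates 2 and 4, and 8.32 without WT replicate 5, which leaves WT at 0, so that this value is no bound. Replicate 6 of Mmp13-/- was the highest sample for both. Hoxa7 stood at 0, 6.91 and 2 in WT and 21.9, 21.5 and 37.2 in Mmp13-/-, with a log2 fold change of 3.40 (SE 0.90, adjusted p = 0.0104). Hoxa9, a gene of blood progenitors that is often active with Meis1 in leukaemia, stood at 6.73, 2 and 6 in WT and 35.8, 28.3 and 49.5 in Mmp13-/-, with a log2 fold change of 3.18 (SE 0.65, adjusted p = 0.00279). Hoxa9 was above 3 counts in WT replicates 2 and 5 as well. Without replicate 6 of Mmp13-/- the log2 fold changes were 2.69 for Hoxa7 and 2.54 for Hoxa9, and that of Hoxa7 was 2.75 without WT replicate 2 and 4.81 without WT replicate 4. Hoxa10 had 4, 0 and 0 in WT and 5.62, 14.5 and 23.9 in Mmp13-/-. Hoxa11, a gene of the forearm, had 0 in every WT sample and 8.15, 6.67 and 12.7 in Mmp13-/-, at least 3.83-fold (2.28-fold without replicate 6), with 35% of its exons shared with the antisense RNA Hoxa11os. Hoxa13, needed for digits and the genital tract, had 0 in every WT sample and 7.53, 18 and 13.7 in Mmp13-/-, at least 5.14-fold. These 3 genes failed the low-count filter, and the genotypes did not overlap for any of them.

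In cluster B, Hoxb1, the gene of rhombomere identity in the hindbrain, stood at 0 in every WT sample and 11.9, 11.4 and 11.9 in Mmp13-/-, at least 4.56-fold. Hoxb2, which acts beside it, had 1, 2 and 0 in WT and 26.6, 21.8 and 47.1 in Mmp13-/-. Its ratio was 34.3 (95% interval 11.4 to 169, and 22.2 without replicate 6), and its adjusted p in the edgeR test was 0.00123. Hoxb3 had 4, 7.67 and 0 in WT and 14.3, 18.5 and 40.1 in Mmp13-/-, with a log2 fold change of 2.92 (SE 0.96, adjusted p = 0.0269), and the call was lost without WT replicate 2, at 2.84 (adjusted p = 0.0712), without WT replicate 5, at 2.29 (adjusted p = 0.0612), and without replicate 6 of Mmp13-/-, at 1.87 (adjusted p = 0.0798). Without WT replicate 4 it was 3.83. The antisense RNA Hoxb3os shares 52.9% of the exons of Hoxb3 and 27.3% of those of Hoxb2. Hoxb5 had 0 in every WT sample and 19.2, 25.3 and 25.7 in Mmp13-/-, at least 9.27-fold. Hoxb6 had 0, 3.01 and 0 in WT and 7.67, 5.6 and 26.9 in Mmp13-/-, a ratio of 14.4 (95% interval 4.59 to 72.9, and 6.01 without replicate 6). Hoxb8, which acts in the blood lineage, had 0 in every WT sample and 10.1, 12 and 10.3 in Mmp13-/-, at least 4.15-fold. Hoxb9, a gene of thorax and mammary gland, had 0 in every WT sample and 18.1, 23.6 and 34.5 in Mmp13-/-, at least 10.6-fold (6.44-fold without replicate 6). Hoxb13, known from prostate and tail bud, had 0 in every WT sample and 9.05, 15.4 and 12.6 in Mmp13-/-, at least 4.82-fold.

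Cluster C begins at group 4, and its genes serve neck, thorax, lumbar spine and hair. Hoxc4 stood at 0, 0 and 2 in WT and 7, 8.78 and 37.3 in Mmp13-/-, a ratio of 28.7 (95% interval 7.56 to 243, and 11.1 without replicate 6). Hoxc5 had 2, 0 and 4 in WT and 15.5, 10.5 and 28.8 in Mmp13-/-. Its log2 fold change was 3.44 (SE 0.97, adjusted p = 0.0138), a call lost without WT replicate 4, at 2.84 (adjusted p = 0.0552). Without WT replicate 5 the value was 4.32 and without replicate 6 of Mmp13-/- 2.52. Hoxc6 had 0.46, 0.411 and 1.81 in WT and 10.7, 7.59 and 26.3 in Mmp13-/-, a ratio of 16.2 (95% interval 5.21 to 81.6, and 8.33 without replicate 6). In all 3 genes replicate 6 of Mmp13-/- was the highest. Hoxc8, a gene of forelimb motor neurons, had 0 in every WT sample and 20, 8.11 and 33.7 in Mmp13-/-, at least 8.99-fold (4.29-fold without replicate 6). Hoxc9, its thoracic neighbour, had 0 in every WT sample and 8.37, 14.5 and 30.6 in Mmp13-/-, at least 7.92-fold (3.55-fold without replicate 6). Hoxc10, the lumbar gene of the cluster, had 0 in every WT sample and 12.5, 10.7 and 15.6 in Mmp13-/-, at least 5.22-fold, and was the single member of these 3 that passed the filter. Hoxc11 had 0 in every WT sample and 8.49, 9.98 and 31.3 in Mmp13-/-, at least 7.59-fold (2.85-fold without replicate 6). Hoxc13, needed for hair and nails, had 0 in every WT sample and 2, 6 and 16 in Mmp13-/-, at least 3.74-fold (1.25-fold without replicate 6). Its 2 counts in replicate 1 of Mmp13-/- lay under the floor of detection.

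In cluster D the genes on the far sides of the stretch present in WT had counts in Mmp13-/- as well. Hoxd1, a gene of pain-sensing neurons in the mouse, stood at 0 in every WT sample and 6.7, 6 and 16 in Mmp13-/-, at least 4.21-fold (1.95-fold without replicate 6). Hoxd10 had 0 in every WT sample and 2, 11.9 and 12.5 in Mmp13-/-, at least 3.73-fold (2.18-fold without replicate 6). Its 2 counts in replicate 1 of Mmp13-/- lay under the floor of detection. Hoxd11, which shapes the forearm with Hoxa11, had 0 in every WT sample and 18, 14.8 and 32.3 in Mmp13-/-, at least 9.22-fold (5.03-fold without replicate 6). Hoxd12 had 0 in every WT sample and 16.8, 11.1 and 24.8 in Mmp13-/-, at least 7.36-fold (4.28-fold without replicate 6), and Hoxd13, the digit gene, had 0 in every WT sample and 8, 11 and 10 in Mmp13-/-, at least 3.77-fold. Hoxd11 and Hoxd12 passed the filter and were called. The remaining 5 Hox genes, Hoxa4, Hoxa5, Hoxa6, Hoxb7 and Hoxc12, had mean normalised counts under 10 in both genotypes, with counts of 0 to 6 in WT and 0.95 to 11.9 in Mmp13-/-. For the 21 genes at 0 in WT the bounds ran from 1.88-fold to 10.6-fold, with a median of 4.82-fold. Without replicate 6 of Mmp13-/- they ran from 1.17-fold to 6.88-fold, with a median of 3.51-fold, and 12 of the 21 were lower by over 1.5 times.

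The test covered 19 of the 39 Hox genes. The other 20 failed the low-count filter. Called higher in Mmp13-/- were 14 of the 19, beside 20.4% of all genes tested. None of these 14 reached the level of the filter, 0.364 CPM, in any WT sample, so they passed through their Mmp13-/- counts alone and had to differ. Among all 2190 genes tested that had no WT sample at that level, 89.4% were called higher, and so were all 14 Hox genes of that kind, so this count is not a result about Hox genes. The other 5 genes tested were those present in WT, and called lower was 1, Hoxd8, beside 9.68%. Without replicate 6 of Mmp13-/- 13 were called higher and 1 lower, beside 19.7% and 9.32% of all genes. With no filter all 39 genes were tested, and 32 were called higher and 1 lower, beside 22.6% and 6.17% of 49715 genes. In that fit 15 of 16 posterior genes were called higher, 10 of 15 central genes and 7 of 8 anterior genes. The 21 genes at 0 in WT, 13 posterior, 5 central and 3 anterior, were all among them. Of 520 other protein-coding genes at 0 in WT, compared below, 66.5% were called higher too. These counts are therefore not a result about position. The 6 genes without a call were Hoxa4, Hoxa5, Hoxb4, Hoxd3, Hoxd4 and Hoxd9. With 10 counts required in every sample the genes tested were Hoxd8 and Hoxd4, and Hoxd8 was called lower.

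The counts of Hox genes in Mmp13-/- were set beside those of genes without counts in WT. The receptor genes had 1.5, 1.76 and 4.8 counts per kb of exon in Mmp13-/- replicates 1, 2 and 6, and the median Hox gene stood at 2.96, 2.51 and 1.71 times that rate. A nearer comparison is with 520 protein-coding genes that were at 0 in all WT samples, are neither Hox nor receptor genes, and lie within 5 percentage points of the median GC content of the Hox genes. Their medians were 3.15, 3.15 and 8.24 counts per kb, with quartiles of 1.29 to 5.13, 1.22 to 5.35 and 4.85 to 11.4. The 21 Hox genes at 0 in WT had medians of 4.20, 4.62 and 6.88, inside those quartiles in each sample. These medians lay above those of the silent genes in replicates 1 and 2 and below in replicate 6. All 21 had counts in each Mmp13-/- sample, as did 79.2% of the 520 genes, and without the filter all 21 were called higher, as were 66.5% of the 520. Being at 0 in WT was the criterion for both sets, so these shares show how the sets compare and do not test a change.

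**Figure D4:**
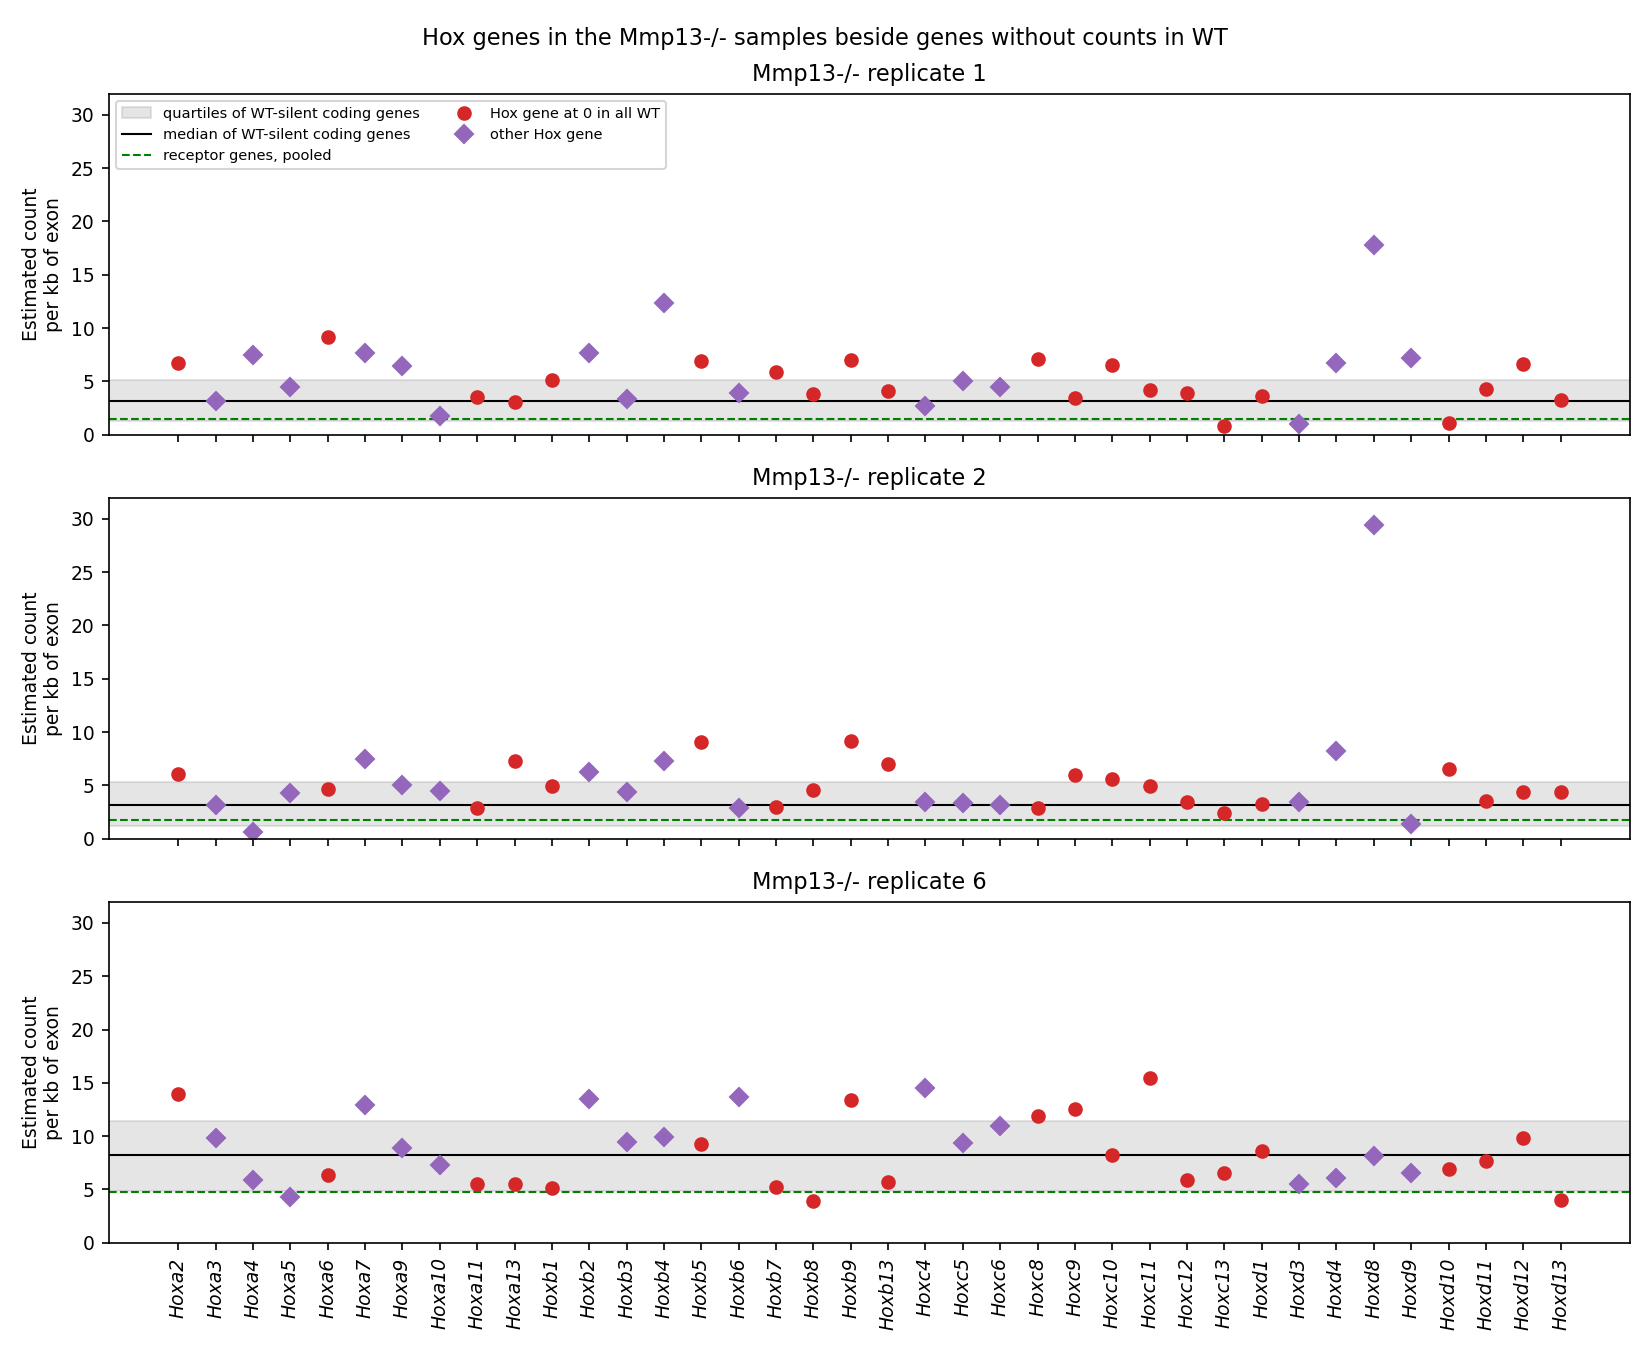
Estimated counts per kb of exon (vertical axis) of 38 Hox genes in the 3 Mmp13-/- samples, with circles for genes at 0 in all WT samples and diamonds for the rest. The grey band and black line are the quartiles and median of 520 WT-silent coding genes and the dashed line is the receptor rate. Hoxd8 stands above the band in replicates 1 and 2 and inside it in replicate 6, and most other Hox genes lie in or near the band.

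Gene by gene, 31 of 39 Hox genes exceeded 3 counts and the receptor rate in every Mmp13-/- sample, and 5 did so in every WT sample. Against the pooled rate of the 520 silent genes, which was 3.78, 3.9 and 9.15 counts per kb, 8 of 39 did so. Hoxd8 was at 5.64, 9.34 and 0.985 times the silent median in replicates 1, 2 and 6. Hoxd4, at 2.15, 2.61 and 0.736 times, and Hoxb4, at 3.92, 2.32 and 1.2 times, were above it in replicates 1 and 2. Hoxd9, at 2.29, 0.425 and 0.795 times, had no fixed side. No Hox gene exceeded 2 times the silent median in replicate 6, while 15 did in replicate 1 and 9 in replicate 2. Hoxd8, Hoxd4 and Hoxb4, present in WT, are among those of replicates 1 and 2. The share of the 520 silent genes, or of all genes, above each rate in this paragraph was not counted. The numbers of Hox genes above these rates are therefore not a result about Hox genes. When the receptor rate was subtracted from each library, 9 Hox genes were left for testing, of which 5 were called higher (Hoxa7, Hoxa9, Hoxb2, Hoxb5 and Hoxb9) and 2 lower (Hoxd8 and Hoxd4). The other 9 genes called higher as reported, Hoxa3 among them, were no longer tested. The source of the counts in silent genes was not tested.

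**Figure D5:**
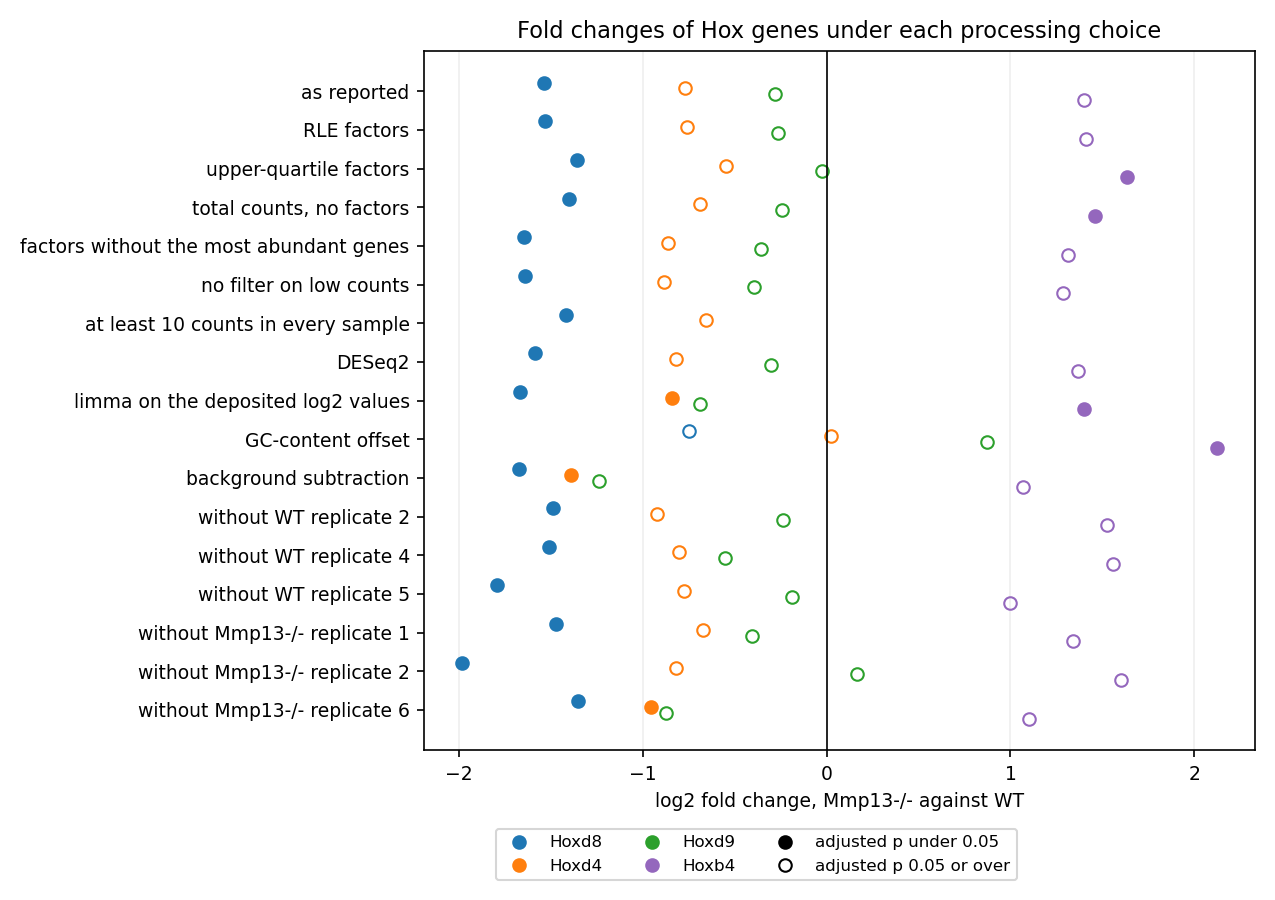
Log2 fold change of Hoxd8, Hoxd4, Hoxd9 and Hoxb4 between Mmp13-/- and WT (horizontal axis) under each processing choice (vertical axis), with filled points for an adjusted p under 0.05. Hoxd8 is lower in all settings plotted, from -1.98 to -0.75, with an adjusted p over 0.05 under the GC-content offset, where Hoxd4 and Hoxd9 change sign. The test against a 2-fold change, where Hoxd8 lost its call as well, has the fold changes as reported and is not plotted.

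Other genes of the Hox clusters and the pathway around them were read from lists. Of 20 noncoding RNAs of the clusters 17 were in the table and 11 were at 0 in all WT samples, among them the limb and trunk regulators Hottip and Hotair. Hoxd3os1 had the highest mean normalised count of the list in both genotypes and stood at 18.4, 27.4 and 22.4 in WT and 14, 21.6 and 36.1 in Mmp13-/-, and a log2 fold change of 0.42 (SE 0.58, adjusted p = 0.567). Hoxaas2, an antisense RNA of cluster A, had 0, 0 and 2 in WT and 23.9, 12.2 and 22.7 in Mmp13-/-. Its log2 fold change was 4.86 (SE 1.0, adjusted p = 0.00293). Hoxb3os had 3.71, 4 and 0 in WT and 12.9, 14.8 and 15 in Mmp13-/-, at 2.59 (SE 0.83, adjusted p = 0.0245). Neither reached the level of the low-count filter in a WT sample. Both passed through their Mmp13-/- counts alone and had to differ, so their p-values do not test a rise. With Hoxd3os1 these were the 3 RNAs of the list that could be tested. The 6 ParaHox and Cdx genes, relatives of the Hox genes used in gut and pancreas, had 0.776 counts per kb in WT replicate 4 and 0 in the other WT samples, pooled over the list, and 3.81, 3.2 and 11.01 in Mmp13-/-. Pooled in the same way, the 21 Hox genes at 0 in WT stood at 4.68, 5.09 and 8.25. None of the 6 passed the filter.

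Of 9 TALE partners of Hox proteins, 8 exceeded 3 counts in every WT sample, and the median of the list was 55.7 normalised counts per kb of exon in WT. Meis3 fell, with a log2 fold change of -1.39 (SE 0.18, adjusted p = 0.000272), and so did Pknox2, with -1.02 (SE 0.16, adjusted p = 0.000608). Both calls were lost with the GC correction, where Meis3 was at -0.41, adjusted p = 0.0552, and Pknox2 at -0.59, adjusted p = 0.0176. Called were 2 of the 9 as lower and 0 as higher, beside 9.68% and 20.4% of all genes tested, which is also the background of the lists that follow. At an unadjusted p under 0.05 the same test gave 3 lower and 0 higher. Of 26 chromatin regulators of Hox clusters, 2 were called higher and 7 lower. Ezh2, the methyltransferase of Polycomb complex PRC2, rose by 1.38 (SE 0.20, adjusted p = 0.000418), and Rnf2, the ubiquitin ligase of PRC1, by 1.21 (SE 0.19, adjusted p = 0.000783). Kdm6b, the demethylase that removes the Polycomb mark, fell, with -1.87 (SE 0.14, adjusted p = 3.73e-05), as did Cbx7, a reader of that mark, with -1.60 (SE 0.14, adjusted p = 5.77e-05). With the GC correction these 4 genes were under 2-fold, Ezh2 at 0.98, adjusted p = 0.00168, Rnf2 at 0.44, adjusted p = 0.0387, Kdm6b at -0.85, adjusted p = 0.00163, and Cbx7 at -0.70, adjusted p = 0.00489. Medians were -0.27 and -0.65 on the log2 scale for these lists, against 0.10 for all genes tested.

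The homeobox genes of head and teeth were tested for 21 of 22 members. Of these, 6 were called lower and 0 higher, and at an adjusted p under 0.05 with a change under 2-fold 5 more were lower and 1 was higher. Dlx2, a jaw patterning gene, fell, with -1.41 (SE 0.16, adjusted p = 0.000155), and so did Alx4, a gene of skull and face, with -1.22 (SE 0.14, adjusted p = 0.000157). With the GC correction Dlx2 was at -0.41, adjusted p = 0.0595, and Alx4 at -0.52, adjusted p = 0.0105, neither of them called. The median of the list was -0.65. Over all lists other than the Hox genes, 28 genes were called lower, and 5 with the GC correction.

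Markers of other cells differed between the same samples. Neutrophil markers were called higher for 9 of 9, with summed normalised counts of 3590 to 7315 in WT and 19660 to 47521 in Mmp13-/-. B cell markers were higher for 9 of 10, erythroid markers for 6 of 10 and blood progenitor markers for 7 of 12, the last with sums of 3040 to 3834 in WT and 4933 to 7867 in Mmp13-/-. The other 5 progenitor markers were not called. Among these was Cd34, named after its values were seen, at a log2 fold change of 0.54 (SE 0.15, adjusted p = 0.0137), which is under 2-fold. At an adjusted p under 0.05 with any fold, 8 of the 12 were higher. Hoxa9, Hoxb4 and Hoxb8 are known from blood cells, and the part of blood cells in these Hox values was not tested. Skeletal muscle markers, with sums of 2786980 to 3283160 in WT and 774792 to 1688120 in Mmp13-/-, were called lower for 7 of 10. With the GC correction 5 genes of all lists other than the Hox genes were called lower, so not all of these 7 calls held. Markers of fibroblast and mural cells were higher for 3 and lower for 1 of 8, endothelial markers 1 and 1 of 7, epithelial markers 1 and 2 of 9, and odontoblast and pulp markers 4 and 2 of 10. Neuron markers were called higher for 4 of 7 tested, and Elavl4 and Scn10a were at 0 in all WT samples. The 4, which are Snap25, Elavl4, Scn10a and Nefm and are named after their values were seen, had 0 to 2 counts in WT and 1.18 to 5.04 times the receptor rate in Mmp13-/-. They too passed the low-count filter through their Mmp13-/- counts alone. The other 3, Stmn2, Tubb3 and Prph, had 10 to 504 counts in WT and log2 fold changes of 0.10, -0.18 and 0.36, and did not pass the test. No other marker of these lists was at 0 in every WT sample.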

How the data were processed

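RNA of mouse dental pulp, 3 WT and 3 Mmp13-/- samples, was sequenced with paired-end reads. The authors deposited a table with estimated counts per gene, made from their alignments in Strand NGS, and log2 values normalised from those counts with DESeq factors. The deposited log2 values were centred on the median of each gene. Per the labels' processing notes the build is mm10, and DESeq was used. The aligner's settings, annotation and strand are not given in the sources used here.

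Estimated counts were rounded and fitted over all genes with edgeR 4.0.16 in R 4.3.3 (quasi-likelihood test, TMM factors, filterByExpr by genotype, Benjamini-Hochberg adjustment, no covariates). A gene was called at an adjusted p under 0.05 and a change over 2-fold. Normalised counts are counts scaled to a common effective library size. Fold changes of genes at 0 in WT are bounds against 3 counts per WT library. They take the mean of the Mmp13-/- samples and leave out the counting error of that mean. Where WT held 1 to 3 counts in total the ratio has an exact binomial counting interval.

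Exon lengths, GC content and positions came from GENCODE M21 (99.8% of genes matched), and promoters from RefSeq on GRCm38.p6. The receptor rate is the pooled counts per kb over 1451 receptor genes. Planned as a median, it was pooled because the median was 0 in WT.

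A Hox gene is given in every sample where its mean normalised count reached 10 in either genotype. Of the other lists, up to 2 genes by level and 2 by adjusted p in each direction were named. For 3 genes that this rule names, 1 of them a Hox gene, values are not reported here, and counts over lists include them. The members and lists were chosen with earlier results of these data known. The fit was tested on simulated data.

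Alternatives were RLE and upper-quartile factors, total counts, factors without the 10 most abundant genes of each sample, other filters, DESeq2 1.42.0, limma 3.58.1 on the deposited log2 values, a GC-content offset (loess, span 0.4), background subtraction, a test against 2-fold and each sample left out. The factors without abundant genes and the rate of WT-silent genes were added after seeing the data.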

Additional observations from a re-analysis of the deposited data

How the results depend on the processing

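Hox genes called higher numbered 14 as reported, 32 with no filter, 31 with DESeq2, 5 with background subtraction, 0 of 2 tested with at least 10 counts in every sample (edgeR, 0 also at an unadjusted p under 0.05, since both were lower), and 13 to 22 with a sample left out, where WT replicate 2 gave the 22. The Hox genes tested were 19 as reported and 39, 39, 9 and 2 in these settings. Called lower was 1 as reported, 2 with background subtraction, and 0 with the GC-content offset and in the test against 2-fold, where Hoxd8 had unadjusted p of 0.0465 and 0.0169, DESeq2 and limma called it, and the cause was not tested. Genes of the other lists called lower went from 28 to 5 with the GC-content offset. Hoxd4 turned to 0.023 and Hoxd9 to 0.87 with that offset, and Hoxd9 ran from -0.87 to 0.17 with a sample left out, turning without replicate 2 of Mmp13-/-. Counted over the 19 genes and the settings in which each was still tested, direction and call were kept 279 times, and 9 calls were lost and 5 gained, the latter those of Hoxb4 and Hoxd4. A further 9 calls were lost with background subtraction and 14 with at least 10 counts in every sample because the genes were no longer tested. Of the 20 genes that failed the filter, 18 were called with no filter, 17 with DESeq2 and up to 9 with a sample left out. With a floor of 10 counts, Hox genes detected in WT went from 5 to 2, those above background from 5 to 2 in WT and from 31 to 16 in Mmp13-/-. Above the rates of WT-silent genes were 8 (pooled) and 15 (median), and the share of other genes above each rate was not counted. With a sample left out, 5 to 6 genes were detected and above the receptor background in WT, and 33 to 34 were above it in Mmp13-/-. For the rates of WT-silent genes no sample was left out. Over all genes the median log2 fold change was 0.10 as reported, 0.32 under upper-quartile factors, 0.21 under total counts, 0.21 with the GC-content offset, 1.30 with no filter and 1.11 with DESeq2, and Hoxd8 was -1.35, -1.40, -0.75, -1.64 and -1.58 there. No paired analysis was possible because the genotypes share replicate number 2 alone. Most Hox genes had under 40 counts per sample, so their values carry large counting error.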
